A study of Mus musculus with 12 samples.

Results

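The level of miR-122 in the livers of mice was followed across 2 consecutive days. Its entry comprised every array probe whose systematic name was exactly mmu-miR-122, 2 of the 1857 probes and 1 of the 650 entries on the array. Each probe was printed as 10 spots, so 20 of the spots on each of 12 arrays reported on it, 240 spots in all. The rule reads the name alone.

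Adult mice, fed and watered freely, were kept on alternating 12-h light and 12-h dark phases, and zeitgeber time (ZT) is the number of hours since a lights-on. A collection was made every 4 h from ZT18 to ZT62, and each time stood on 1 single-colour (Cy3) Agilent miRNA array that received RNA mixed from 2 livers. The arrays fell into 6 dark (clock times 14, 18 and 22 h after lights on) and 6 light ones (2, 6 and 10 h). They also fell into a cycle 2 (ZT42 to ZT62) and a cycle 1 (ZT18 to ZT38), each holding every clock time once. All groups shared the same housing and no group was treated; strain, sex and genotype are not given in the sources used here. The mixing leaves 2 arrays per clock time, 24 h apart, as the only replicates, and p-values measure the spread between such mixed samples and not between mice.

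MicroRNAs are short RNAs, cut from longer transcripts by the nucleases Drosha and Dicer, that guide Argonaute proteins to messenger RNAs and repress them. miR-122 is made almost only in hepatocytes, the main cells of the liver, where it is known for its part in cholesterol and lipid metabolism and as a host factor that hepatitis C virus needs. Its gene has been reported to be transcribed in a daily rhythm in mouse liver, repressed by the clock protein REV-ERBα, whereas the mature RNA is long-lived. The arrays measured the mature form.

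miR-122 was far above background at every time and changed little over the 2 days. All 240 of its spots lay well above background, and the raw signal stood 910 to 1084 times over the local background for the brighter probe and 452 to 594 times for the dimmer one. No spot on any array was saturated: the brightest miR-122 spot had a median signal of 36940 intensity units, against a saturation value of at least 778947. The brighter probe held the highest signal of all probes on every array and the dimmer one ranked 2 to 3. Brightness depends on the probe as well as on the RNA, so this rank gives no order of abundance between miRNAs, and how dominant miR-122 is among liver miRNAs was not measured. In these mixed tissue samples fewer hepatocytes and less miR-122 per hepatocyte cannot be told apart.

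The tissue label was set beside lists of cell type miRNAs. These lists were written with earlier results of these data known, so they give no independent check. Of 10 miRNAs enriched in hepatocytes, miR-122 among them, 10 were detected on all 12 arrays. The 4 miRNAs of striated muscle (miR-1, miR-133a, miR-133b and miR-206) and the 2 neuronal ones that the arrays carried (miR-9 and miR-124) were detected on none. Of all 650 entries, 427 went undetected throughout and 112 were seen on every array, so non-detection was the commoner outcome. Some miRNAs listed for blood and other liver cells were detected too. Seen on all 12 arrays were 4 of 6 leukocyte and 2 of 3 red cell miRNAs. So were 2 of 2 endothelial and 4 of 6 stellate and smooth muscle miRNAs, but 0 of 5 for bile duct epithelium. Of the bile duct miRNAs, miR-200a and miR-200b were detected on 10 and 11 arrays. In the dark 0 members of any of these lists rose or fell in limma, beside 0 of all 139 tested entries (0%). The median dark minus light difference was -0.062 log2 units for leukocyte, 0.0068 for red cell and -0.0052 for endothelial miRNAs. For stellate and smooth muscle miRNAs it was 0.13, and for bile duct miRNAs 0.34. The bile duct value rests on miR-200a and miR-200b alone, with means of 26.9 and 28.4 intensity units. They lay at the lower floor of 21.9 units on 3 and 2 arrays. The part of these other cell types in the values of miR-122 was not tested. Over the series, 132 to 162 entries were detected on an array, and the 139 detected on at least 6 arrays were tested.

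The values below are spot intensities averaged per probe, scaled between arrays on the 75th percentile of the probes detected everywhere, and given either in those units or as log2. At ZT18, ZT22, ZT26, ZT30, ZT34 and ZT38 the brighter probe measured 31519, 30746, 32335, 29458, 32805 and 30158 units. At ZT42, ZT46, ZT50, ZT54, ZT58 and ZT62 it measured 32561, 33027, 31228, 33127, 32116 and 29656 units. With this scaling the lowest level came at ZT30 and the highest at ZT54, both 6 h after lights on. The extremes of the 2 days thus fell on the same clock time. The highest was 1.12 times the lowest, and the mean was 31561 ± 1309 units (SD, n = 12), a coefficient of variation of 4.15%. Before scaling the same probe ranged over 1.19-fold, with a coefficient of variation of 6.60%. The extremes moved with the scaling. Without scaling the lowest and highest levels fell at ZT30 and ZT38, and with median scaling at ZT22 and ZT46.

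The dimmer probe, which reads the same miRNA at other spots, measured 15955, 15436, 16555, 15155, 16316 and 15652 units from ZT18 to ZT38. From ZT42 to ZT62 it measured 17106, 17316, 17431, 16795, 16701 and 16306 units. Its lowest level again came at ZT30, and its highest at ZT50. The highest was 1.15 times the lowest, with a mean of 16394 ± 734 units (SD, n = 12). Over the 12 arrays the log2 values of the probes correlated with r = 0.684, a description, since they share RNA, array and scaling factor.

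**Figure D1:**
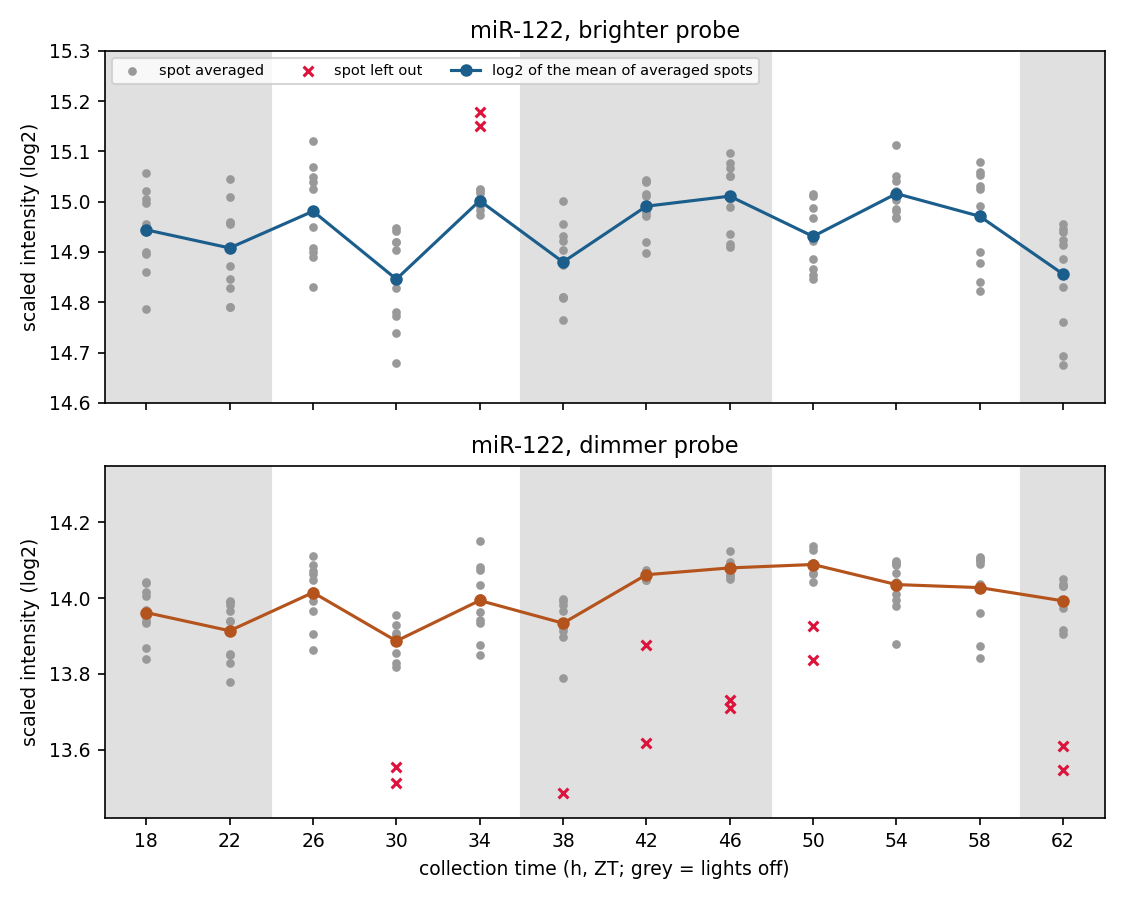
Scaled intensity of miR-122 on a log2 axis against collection time, the brighter probe above and the dimmer one below, with grey bands for lights off. Grey points are single spots, crosses are spots left out because the scanner software had marked them as outliers, and the line joins the log2 of the mean of the averaged spots. The brighter probe stays between 14.85 and 15.02 and the dimmer one between 13.89 and 14.09.

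On the log2 scale the SD over the 12 arrays was 0.060 for the brighter probe and 0.065 for the dimmer one. The SE that the spots of an array give for their mean had a median over arrays of 0.025 and 0.021, so arrays differed by more than the scatter of their spots alone. The scanner software's own total for miR-122 ranged from 28134 to 34218 units without scaling. It is not the sum of the probe means. At ZT18 it was 28900, below the unscaled mean of the brighter probe alone, 29441. The software attached an error of 7.36% to 7.46% to this total. The coefficient of variation of that total over the arrays, 6.04%, was smaller than this error. The error is the software's figure for a single array, so setting the values side by side is not a test. Among the 63 tested entries with a mean above 100 units, 16 had a smaller SD over the arrays than miR-122, and the median SD of all 139 tested entries was 0.10.

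The first question was whether miR-122 follows the day, since the series was made to study how miRNAs act on the circadian clock. No 24-h rhythm was detected with either probe. The fitted peak was 1.03 times the trough for each, with an upper 95% limit of 1.14 for the brighter and 1.15 for the dimmer. These narrow limits hold for scaling on the detected probes: with scaling on all probes the brighter probe had a fold of 1.33 and an upper limit of 3.11. In limma's moderated F test the adjusted p was 0.993 for each probe, and permuting the 12 time labels gave an unadjusted p of 0.767 and 0.747. In limma 0 of the 139 entries (0%) passed an adjusted p of 0.05 here, with 5 at an unadjusted p under 0.05. With the slide as a block the fold of the brighter probe was 1.03 (upper limit 1.15), and on the 8 arrays of slide 1 it was 1.03 (upper limit 1.22). Slide 2, with 4 arrays, was not fitted alone.

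A 12-h rhythm beside the 24-h one, as some liver transcripts have, was not detected either. On the brighter probe its fitted size was 1.05-fold from trough to peak (upper limit 1.17) and the dimmer one 1.02 (upper limit 1.16). The adjusted p values in limma were 0.884 and 1, and 0 of 139 entries (0%) passed, with 8 at an unadjusted p under 0.05. The permutation p was 0.447 for the brighter probe and 0.917 for the dimmer one. With the slide as a block the fold of the brighter probe was 1.05, and on slide 1 alone it was 1.04.

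Levels at the 6 clock times were then compared without assuming a shape. At 2 h after lights on the brighter probe measured 32335 and 31228 units, at 6 h 29458 and 33127, and at 10 h 32805 and 32116. At 14 h it measured 30158 and 29656 units, at 18 h 31519 and 32561, and at 22 h 30746 and 33027. With this scaling the 14-h samples, taken 2 h after lights off, were the only ones with 2 low values. The 2 samples at 6 h lay the farthest apart. The low 14-h pair depended on the scaling. ZT38 stood at -0.0645 log2 units from the mean of the arrays here, at 0.1441 without scaling and at -0.0101 with median scaling. ZT62 stood below the mean in each case, at -0.0887, -0.092 and -0.0412 log2 units. With the scaling used here the highest mean, at 10 h (14.99 ± 0.02 log2 units, SD, n = 2), was 1.09 times the lowest, at 14 h (14.87 ± 0.02, SD, n = 2).

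The means fell in the order 10, 18, 22, 2, 6 and 14 h. Each step between neighbours was smaller than the larger SD of the 2 clock times. This is a weak comparison, since each SD rests on 2 arrays. The largest step, 0.063 log2 units from 6 to 14 h, was smaller only than the SD at 6 h (0.12), not than that at 14 h (0.017). The F test over clock times gave an adjusted p of 0.847 in limma, and 0 of 139 entries (0%) passed, with 5 at an unadjusted p under 0.05. The exact permutation p, from all 10395 possible pairings of the arrays, was 0.522. For the dimmer probe the clock-time means spanned 1.06-fold, with an exact permutation p of 0.820. With the slide as a block the span of the brighter probe had an adjusted p of 0.827 in limma. On slide 1 alone the span was 1.11-fold. Only 18 and 22 h had 2 arrays there, and each other clock time had 1.

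Dark and light samples, which in nocturnal mice also separate activity and feeding from rest, had nearly the same miR-122. The 6 dark arrays ran from 29656 through a median of 31133 to 33027 units, and the 6 light arrays from 29458 through 32225 to 33127 units on the brighter probe. The ranges overlapped almost wholly, and 4 of 6 dark arrays lay below the light mean. The dark over light fold was 0.982 (95% interval 0.930 to 1.04) for the brighter probe and 0.988 (95% interval 0.931 to 1.05) for the dimmer one. The adjusted p in limma was 0.852 and 0.974, the exact two-sided permutation p was 0.474 and 0.649, and 0 of 139 entries (0%) passed, with 11 at an unadjusted p under 0.05. The fold was 0.979 with the slide as a block and 1.00 on slide 1 alone; slide 2 held 1 dark array.

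Narrower parts of the day were compared next. Samples around dawn (clock times 22 and 2 h) measured 30746, 33027, 32335 and 31228 units, and those around dusk (10 and 14 h) 32805, 32116, 30158 and 29656 units. The groups overlapped, with a dawn over dusk fold of 1.02 (95% interval 0.951 to 1.10), an adjusted p of 0.883 in limma and an exact permutation p of 0.486. Samples of the early night (14 and 18 h) measured 30158, 29656, 31519 and 32561 units, and those of the early day (2 and 6 h) 32335, 31228, 29458 and 33127 units. Here too the groups overlapped, with a fold of 0.982 (95% interval 0.915 to 1.06), an adjusted p of 0.962 in limma and an exact permutation p of 0.629. In each contrast 0 of 139 entries (0%) passed in limma, with 5 and 8 at an unadjusted p under 0.05. With the slide as a block the folds were 1.02 and 0.985, and on slide 1 alone 1.02 and 1.01.

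The 2 days were compared within clock times, and here the probes of miR-122 differed in what they showed. On the brighter probe cycle 2 over cycle 1 was 1.03-fold (95% interval 0.964 to 1.09), higher in 3 of 6 pairs of samples 24 h apart, with an adjusted p of 0.865 in limma and an exact permutation p of 0.438. The pairs ran from 0.966-fold at 2 h to 1.12-fold at 6 h. On the dimmer probe the fold was 1.07 (95% interval 1.03 to 1.11), higher in 6 of 6 pairs. Cycle 2 averaged 14.05 ± 0.04 log2 units on it, against 13.95 ± 0.05 log2 units for cycle 1 (SD over 6 arrays). The single arrays of the cycles overlapped on both probes.

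The difference of the dimmer probe did not pass the adjusted test. Its unadjusted p in limma was 0.00512 and its adjusted p 0.711, and 0 of 139 entries (0%) passed, with 5 at an unadjusted p under 0.05. The exact permutation p was 0.0312, the smallest that 6 pairs allow, and 0.524 after Benjamini-Hochberg adjustment over the 18 permutation tests (9 comparisons on each of 2 probes). In the 2 pairs that shared slide 1 the dimmer probe differed by 0.10 and 0.17 log2 units, and in the 4 pairs that crossed slides by 0.034 to 0.15. Slide 2 held ZT50 to ZT62, all in cycle 2, so in the crossing pairs slide and cycle cannot be told apart. The dimmer probe was not fitted with the slide as a block. The cycle 2 over cycle 1 fold was 1.04 times as large on the dimmer probe as on the brighter one, and larger in 5 of 6 pairs, with an exact permutation p of 0.0625; this test was chosen after the values were seen. For the brighter probe, a fit on slide 1 alone and a fit with the slide as a block were run. With clock time in the model, both take the cycle difference only from the 2 pairs that shared slide 1. In these pairs, at 18 and 22 h, the brighter probe differed by 0.047 and 0.10 log2 units. Both fits therefore gave the same 1.05-fold and are not separate checks, and neither passed an adjusted p of 0.05 in limma.

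**Figure D2:**
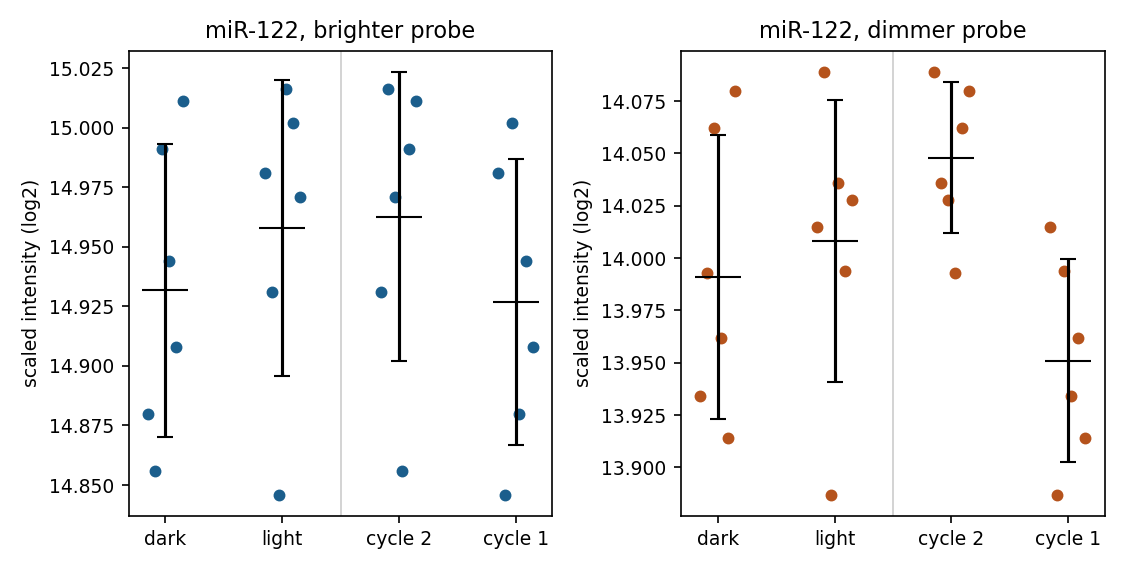
Scaled intensity of miR-122 (log2) on single arrays, dark beside light and cycle 2 beside cycle 1, for the brighter probe (left) and the dimmer probe (right); bars are the mean and SD of 6 arrays. Dark and light overlap on both probes, and cycle 2 lies above cycle 1 mainly on the dimmer one (14.05 ± 0.04 against 13.95 ± 0.05).

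No drift over the 44 h of collection was detected on the brighter probe, with a fold per 24 h of 1.01 (95% interval 0.958 to 1.06), an adjusted p of 0.986 in limma and a permutation p of 0.787. The dimmer probe gave a fold per 24 h of 1.04 (95% interval 0.999 to 1.09), an adjusted p of 0.682 in limma and a permutation p of 0.0583. The dark over light difference did not differ detectably between cycles. On the brighter probe dark over light in cycle 2, divided by the same in cycle 1, was 1.01 (95% interval 0.896 to 1.14), with an adjusted p of 0.986 in limma and an exact permutation p of 0.875. In these fits 0 of 139 entries (0%) passed in limma, with 7 and 3 at an unadjusted p under 0.05. With the slide as a block the slope was 1.02-fold per 24 h and the ratio between cycles 0.943; on slide 1 alone the slope was 1.04-fold.

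**Figure D3:**
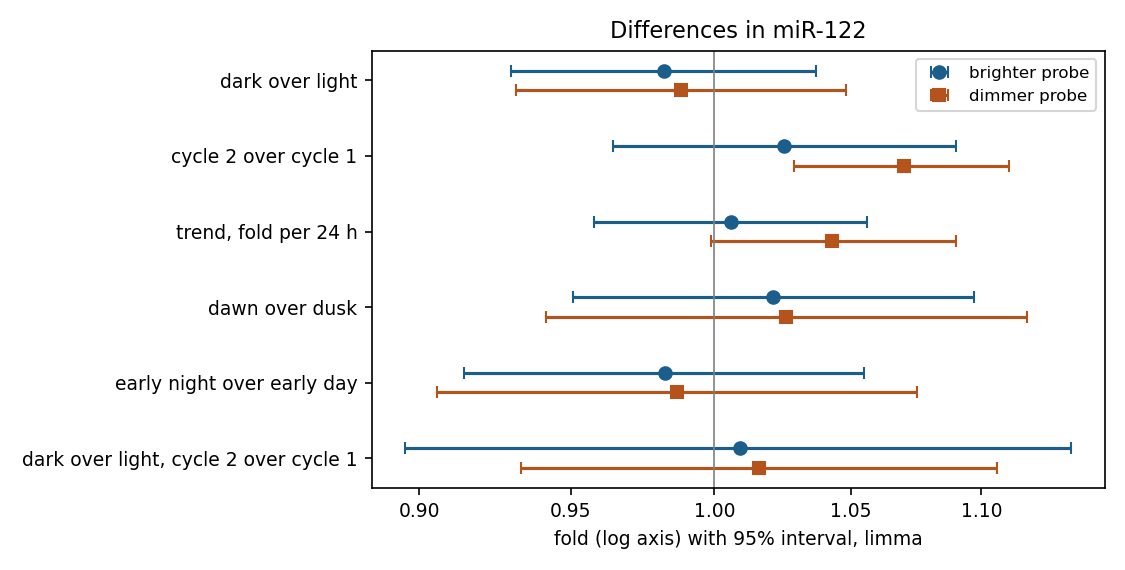
Fold differences of miR-122 with 95% intervals from limma on a log axis, circles for the brighter and squares for the dimmer probe. All intervals include 1 except that of the dimmer probe for cycle 2 over cycle 1 (1.03 to 1.11), which did not pass after adjustment over 139 entries.

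The spots of a probe did not scatter at random around their mean, and the pattern bore on the level of the dimmer probe. The deviations of the 10 spots correlated between arrays with a mean r of 0.722 for the brighter and 0.782 for the dimmer probe, a description over spots that keep their place on every array. At 2 positions the dimmer probe lay below its array mean on 12 of 12 arrays, at 0.865 and 0.888 times that mean on average. They stood at row 163, column 80 and row 188, column 69 of a grid of 192 rows and 82 columns. All 11 outlier marks of the dimmer probe fell on them, 2 on each of 5 arrays, 1 on 1 array and 0 on 6 arrays. Of the marks 8 were in cycle 2 and 3 in cycle 1. The brighter probe had 2 marks in all, on its 2 brightest positions at ZT34.

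Where 2 spots of the dimmer probe were left out, the brighter probe stood 0.84 to 0.96 log2 units above it; where none was, 0.94 to 1.01 units. With marked spots kept these ranges were 0.88 to 1.02 and 0.94 to 1.04 units. Leaving marked spots out therefore raised the dimmer probe on 6 arrays, 4 of them in cycle 2 (ZT42, ZT46, ZT50 and ZT62) and 2 in cycle 1 (ZT30 and ZT38). With all spots kept its cycle 2 over cycle 1 fold was 1.05 (95% interval 1.00 to 1.11, adjusted p 0.710 in limma), and with the 2 positions left out on every array 1.06 (95% interval 1.02 to 1.11, adjusted p 0.864 in limma), each higher in 6 of 6 pairs. The r between the probes was 0.797 and 0.775 under these treatments. These alternatives for the dimmer probe were chosen after seeing the data.

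**Figure D4:**
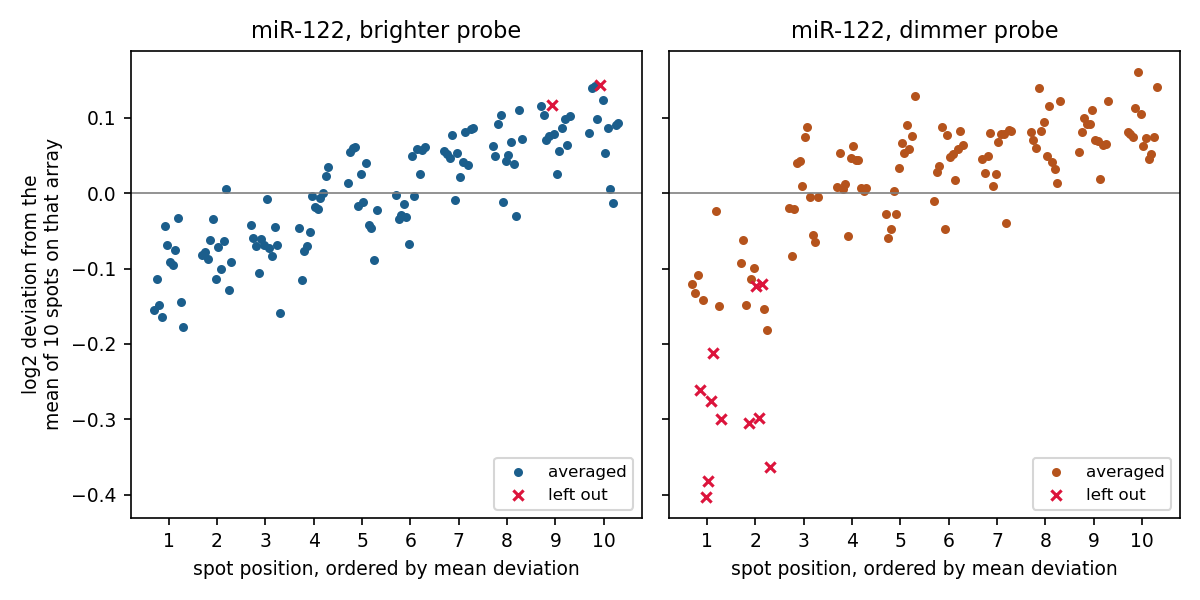
Deviation of each miR-122 spot from the mean of the 10 spots of its probe on the same array (log2), by spot position in order of mean deviation; within a position points run from ZT18 on the left to ZT62 on the right. Crosses mark spots left out as outliers. The 2 lowest positions of the dimmer probe lie below 0 on all 12 arrays and carry all of its 11 outlier marks.

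miR-122 was set beside the other miRNAs enriched in hepatocytes. Of the 10 on the list, miR-122 included, 0 rose and 0 fell in the dark and 0 had a 24-h rhythm. The threshold was an adjusted p of 0.05 in limma over all 139 entries. In both comparisons 0 of the 139 entries (0%) passed, so these counts are not particular to the list. The median dark minus light difference of the list was -0.032 log2 units, beside -0.023 for all tested entries, and its median peak-to-trough fold 1.04, beside 1.08. miR-192 and miR-194, which share primary transcripts, had an SD over the arrays of 0.060 and 0.053 log2 units and dark minus light differences of -0.039 and -0.0028. miR-148a and miR-22 had an SD of 0.057 and 0.052, and dark minus light differences of -0.076 and -0.0032. miR-101a and miR-101b, which differ slightly in sequence, had an SD of 0.072 and 0.071, and miR-193 and miR-365 of 0.053 and 0.052. miR-802, which has been tied to insulin sensitivity in mouse liver, had an SD of 0.56 log2 units at a mean of 31.4 intensity units and lay at the lower floor of 21.9 units on 2 arrays.

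Entries whose values ran most like miR-122 were ranked by r over the 12 arrays among the 108 others never at the floor. The 5 highest were let-7f (r = 0.815), miR-126-5p (0.806), miR-1224 (0.770), let-7c (0.767) and let-7b (0.757). The 5 lowest were miR-331-3p (-0.406), miR-146a (-0.379), miR-361 (-0.158), miR-30e (-0.155) and miR-500 (-0.108). Over all 108 entries r had a median of 0.340. miR-126-5p stands on the endothelial list and miR-146a on the leukocyte list. Other ranked members of these lists lay elsewhere: endothelial miR-126-3p had r = 0.430, and leukocyte miR-142-3p and miR-223 had 0.028 and 0.054. The r values moved with the scaling, and a factor shared by an array moves all its entries together. Without scaling the median r was 0.671 and let-7f reached 0.938; with median scaling the median r was 0.141 and let-7f had 0.549. They are descriptions of 12 arrays that share their scaling factors.

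The mature sequences of 4 of these 5 entries were found in RefSeq (GRCm38.p6) and are shown because 3 of them share a seed, bases 2 to 8, given in capitals. The other, miR-126-5p, is named only.
let-7f: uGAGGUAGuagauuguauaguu
let-7c: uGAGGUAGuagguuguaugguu
let-7b: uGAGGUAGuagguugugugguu
miR-1224: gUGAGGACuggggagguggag
The let-7 seed GAGGUAG is carried by 11 of the 1679 mature mouse miRNA names in that table, and that of miR-1224 by 1. let-7f is encoded at 2 places, chr13:48537889-48537910 on the minus strand and chrX:151912353-151912374 on the plus strand, and let-7b at chr15:85707325-85707346 on the plus strand. Near-identical let-7 members can bind each other's probes, so their values are not independent of each other. The other let-7 members in the ranking had r with miR-122 from 0.676 (let-7g) down to 0.105 (let-7e).

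**Figure D5:**
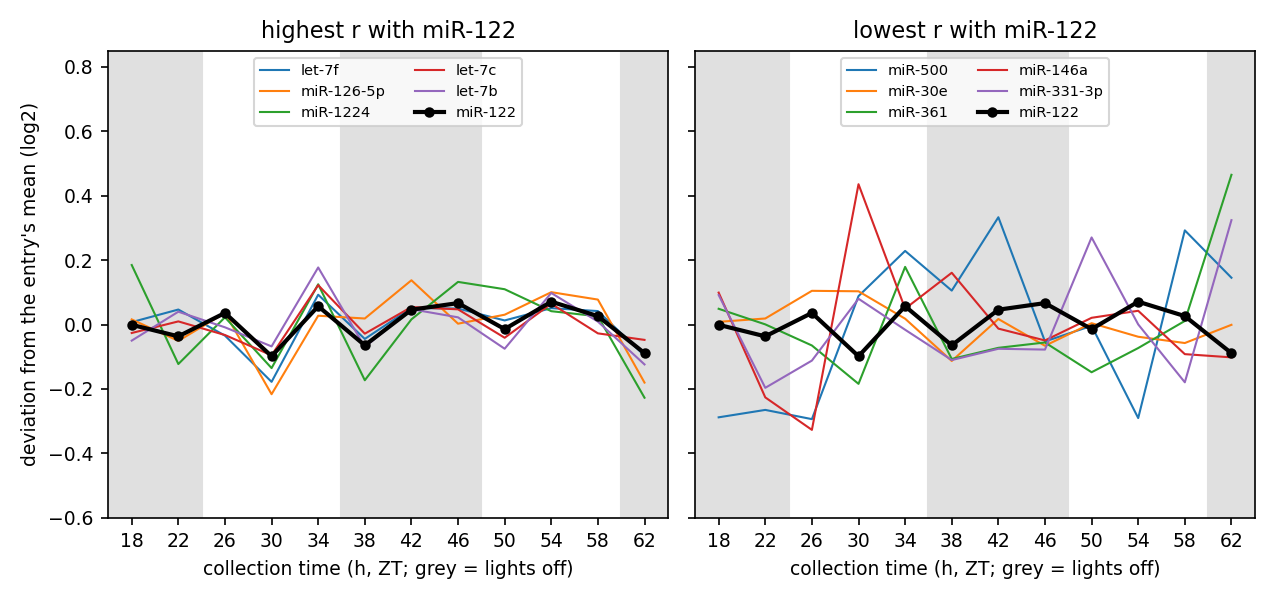
Deviation from the entry's own mean (log2) over collection time for miR-122 (black) with the 5 entries of highest r (left) and of lowest r (right), grey bands for lights off. The left-hand entries all lie below their means at ZT30 and ZT62, as miR-122 does. They were picked by r over these same arrays, so the shared low arrays are no separate result. The right-hand entries have r between -0.406 and -0.108.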

How the data were processed

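The deposited values are spot intensities from single-colour arrays, subtracted for background and detrended within an array by Agilent Feature Extraction 10.7.3.1, per the file headers; the submitters' processing notes name 9.5.3.1. The deposited series table held the same intensities (largest difference 0). Outlier-marked spots and controls were dropped before the spots of a probe were averaged. Each array was divided by the 75th percentile of the 157 probes that every array detected (factors 0.910 to 1.16), a floor of 21.9 units was set, and log2 was taken. Each entry was read from its brightest probe; for miR-122 every test was repeated on the dimmer probe. Entries called detected on at least 6 arrays, 139, were fitted in limma 3.58.1 (R 4.3.3) with an intensity-dependent variance prior, with Benjamini-Hochberg adjustment over all of them and a threshold of 0.05. Intervals are 95% limits, and upper limits of rhythms come from the joint confidence region of cosine and sine. Single values were also tested by exact permutation or with 100000 draws. Fits were also run on simulated data in which the noise was independent for every entry and array. Those data held no factor shared by the entries of an array, so they do not check the results against such a factor. Named entries were miR-122, the hepatocyte list, and the 5 highest and 5 lowest r with miR-122; the members and lists were chosen with earlier results of these data known. Normexp was planned on the mean spot signal and run on the median signal, with an offset of 50, since a mean signal was not found in the columns used here.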

Additional observations from a re-analysis of the deposited data

How the results depend on the processing

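miR-122 did not pass the adjusted test in any of 249 fits over the 9 comparisons, either probe included, the smallest adjusted p in limma being 0.157 with scaling on all probes, and the number of arrays limits how small a change could be seen. With 16.5% to 19.6% of spots well above background, the 75th percentile of all probes lies below that level, and this scaling spread miR-122 over 3.19-fold, with a 24-h fold of 1.33 (upper limit 3.11), a 12-h fold of 1.15 (upper limit 3.17) and a span over clock times of 1.66. Signs of these small differences depended on the scaling, and the cause was not tested. Dark over light was 1.03 without scaling, 1.32 with all-probe scaling and 1.00 on slide 1. Cycle 2 over cycle 1 was 0.994 and 0.708 without scaling and with all-probe scaling. The fold per 24 h was 0.997 without scaling, 0.759 with all-probe scaling, 0.999 with normexp and 0.949 with the cycle as a block, and 0.998 to 1.03 when single arrays were left out. Dawn over dusk was 0.976 without scaling, 0.982 with all-probe scaling, 0.990 with median scaling and 0.999 with the median of spots. Early night over early day was 1.03, 1.25 and 1.01 without scaling, with all-probe scaling and on slide 1, and 0.954 to 1.01 leaving out arrays. The dark over light ratio between cycles was 0.940 without scaling, 0.943 with the slide as a block, 0.973 on the dimmer probe with all spots kept, and 0.988 to 1.04 leaving out arrays. The r between the probes was 0.995 with all-probe scaling, and the median r of other entries 0.671 without scaling, 0.981 with all-probe scaling and 0.141 with median scaling. With normexp 1 entry passed for the 24-h rhythm, 12-h rhythm, time of day and dawn over dusk. With median scaling 2 passed for the 12-h rhythm, with quantile normalization 1 for the ratio between cycles, and on slide 1 alone 3, 3 and 2 for time of day, dawn over dusk and early night over early day. Leaving out single arrays gave 0 to 8 entries for time of day (8 without ZT26), 0 to 2 for dark over light (2 without ZT30), 0 to 6 for dawn over dusk and 0 to 7 for early night over early day (6 and 7 without ZT26). Without ZT46 time of day had 2 and dawn over dusk 1, without ZT58 each had 1, and without ZT54 time of day and early night over early day had 1. miR-122 was not among these entries. Quantile normalization gives the brightest probe the same value on every array and so no value for miR-122, and the ratio between cycles could not be fitted on slide 1. The labels give no replicate numbers, so no block by replicate number was fitted; the cycles were compared in pairs of samples 24 h apart.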

Other observations

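In none of 8 groups of 6 arrays (dark, light, cycle 2 and cycle 1 on each probe) was a single array far from the others: the largest gap ratio was 0.528, for the low ZT30 value among the light arrays on the dimmer probe, under the critical value of 0.625. ZT30 was the lowest array on both probes, and it was also low for let-7f, miR-126-5p and let-7c in the plot of entries most like miR-122. Those entries were picked by r over the same arrays, so their low values there are no separate result. With median scaling the brighter probe at ZT30 stood at -0.0083 log2 units from its mean.

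With normexp, miR-122 had a dark minus light difference of -0.0056 log2 units, where the median entry had -0.36, and a cycle 2 minus cycle 1 difference of 0.023, where the median entry had 0.36. With all-probe scaling miR-122 lay near the median entry: 0.40 beside 0.38 for dark minus light, and -0.50 beside -0.50 for cycle 2 minus cycle 1.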
